A study of Mus musculus with 5 samples.

Results

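The STAT transcription factor family was examined in sorted dermal group 2 innate lymphoid cells (dILC2s) of wild-type (WT) mice and of mice labelled *Rag1*-/-. The members, taken by gene symbol from the table of deposited counts, were *Stat2*, *Stat3*, *Stat4*, *Stat5a*, *Stat5b* and *Stat6*, which are 6 of 47729 genes, and all 6 were among the 19011 genes that passed the filter on low counts. The remaining STAT gene was not analysed here. Each of the 5 libraries was made from freshly sorted, unstimulated cells of a pool of female, young adult C57BL/6 mice, gated as viable cells with CD45 and high CD90 and without the T cell markers CD2 and CD3. WT pools 5, 6 and 13 came from 30 mice and *Rag1*-/- pools 2 and 7 from 16 mice by the labels, whereas the number of *Rag1*-/- mice in the study's methods differs. The *Rag1*-/- mice carry a disrupted *Rag1*, a gene needed to rearrange antigen receptor genes, in every cell and lack mature T and B cells, so that the deletion in the dILC2s themselves and the changed host cannot be told apart. The labels call the cells of the WT libraries innate lymphoid cells type 2 and those of the *Rag1*-/- libraries type 3, and the study describes dILC2s in both groups.

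The libraries held 32939428 to 39477243 counts in WT, and 8050562 (pool 2) and 38922750 (pool 7) in the libraries labelled *Rag1*-/-, so that pool 2 was by far the shallowest. *Rag1* itself had at most 5 counts in any WT library and in *Rag1*-/- pool 2, and 48 in pool 7. It was thus not lower in the libraries of that label, and the genotypes given here are those of the labels. All 15 markers of ILC2s, such as *Gata3* and *Il1rl1*, were tested, with a summed level of 1370 to 2476 CPM (counts of a gene scaled to the library total) in WT and 4035 to 6129 CPM in the libraries labelled *Rag1*-/-. Of these markers, 5 were called higher, *Il5*, *Il13*, *Areg*, *Arg1* and *Thy1*, and none lower. *Gata3* and *Il1rl1* were not called. Since the labels name type 3 cells, markers of ILC3s were summed as well, with 306 to 339 CPM in WT and 459 and 326 CPM in the libraries labelled *Rag1*-/-. Of these 8 genes, 4 were called higher, *Il17f*, *Il22*, *Il23r* and *Ccr6*, and 1 was called lower, *Ahr*. In WT the sums came mostly from *Ahr* (172, 166 and 140 CPM in pools 5, 6 and 13) and *Il1r1* (121, 92.4 and 114 CPM). In *Rag1*-/- pools 2 and 7, *Ahr* had 69.7 and 68.0 CPM and *Il1r1* 98.5 and 74.5 CPM. The sums therefore hide the higher levels of the other genes in these libraries. Keratinocyte markers (20 genes) summed to 30993 to 45029 CPM in WT and to 7862 to 18885 CPM in the libraries labelled *Rag1*-/-, and 5 of them were called lower. The 30 pan-leukocyte markers summed to 1243 CPM in WT pool 5, to 2968 and 2924 CPM in WT pools 6 and 13, and to 9837 and 8542 CPM in the libraries labelled *Rag1*-/-. Of these, *Evi2b* had at most 3 counts in every library, 29 were tested, 22 were called higher and none lower (edgeR, at the thresholds given below). Although the gate left out cells with CD2 or CD3 on their surface, the T cell markers (10 genes, 9 tested) summed to 40.4 to 65.5 CPM in WT and to 209 and 184 CPM in *Rag1*-/- pools 2 and 7. Of these, *Cd3g*, *Cd247*, *Trac* and *Trbc2* were called higher, and *Cd3d*, *Cd3e*, *Cd4*, *Cd28* and *Cd5* were not called. *Cd5* went the other way, with a log2 fold change of -1.48 (adjusted p = 0.135, edgeR). *Cd8a* had 0 or 1 counts under the *Rag1*-/- label. The 7 markers of NK cells and ILC1s summed to 90.6 to 144 CPM in WT and to 208 and 225 CPM under the *Rag1*-/- label. Of these, 1 was called higher (*Prf1*) and 1 lower (*Itga2*). The sums came mostly from *Klrk1*, which was not called, and *Itga2*. *Klrk1* had 22.2, 74.8 and 81.6 CPM in WT pools 5, 6 and 13 and 167 and 193 CPM in *Rag1*-/- pools 2 and 7. *Itga2* had 65.5, 66.1 and 45.3 CPM against 26.2 and 19.9 CPM. *Ncr1*, *Klrb1c* and *Eomes* had at most 2.11 CPM in any library. The part of all these markers in the results on the STAT genes was not tested, and in pooled cells fewer leukocytes and less RNA per leukocyte cannot be told apart.

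STAT proteins are latent transcription factors of the cytoplasm. A cytokine brings its receptor chains together, the receptor-bound JAK kinases phosphorylate a tyrosine of the STAT, and the paired STATs enter the nucleus and bind palindromic DNA sites. STAT2 works in the interferon-stimulated factor with IRF9, STAT3 transmits IL-6, IL-10, IL-21 and IL-23, STAT4 transmits IL-12 and IL-23, STAT5A and STAT5B transmit IL-2, IL-7 and TSLP, and STAT6 transmits IL-4 and IL-13. ILC2s are known to depend on IL-7 and to respond to TSLP and IL-2, all of which act through STAT5.

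The members sit on 3 chromosomes (GRCm38). *Stat4* (ENSMUSG00000062939) lies on chromosome 1 at 51987148 to 52107189. *Stat6* (ENSMUSG00000002147, 127642986 to 127660957) and *Stat2* (ENSMUSG00000040033, 128270576 to 128292849) lie on chromosome 10. *Stat5b* (ENSMUSG00000020919, 100780731 to 100850724), *Stat5a* (ENSMUSG00000004043, 100859351 to 100885169) and *Stat3* (ENSMUSG00000004040, 100885098 to 100939540) are direct neighbours on chromosome 11. The divergent genes *Stat5b* and *Stat5a* are 8626 bases apart, and the convergent genes *Stat5a* and *Stat3* overlap by 72 exonic bases at their ends. *Stat6* shares 40 exonic bases with *Nab2* on the other strand. The library kit does not mark the strand, so that reads from these overlaps cannot be given to either gene. *Stat4* shares 1033 of its 3872 exonic bases with *Gm28177*, a transcript on the same strand that had 0 to 2 counts in every library. Whether reads from the shared bases were counted for *Stat4* was not tested.

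*Stat5a* and *Stat5b* are near-copies, and their sequences are shown because reads of 50 bases decide how well their counts can be separated. Of the distinct 50-base windows in their annotated transcripts, 608 were shared, which is 8.21% of the windows of *Stat5a* and 10.98% of those of *Stat5b*. Read along the transcripts, no 50-base window was shared between any other members. Windows of a member were not compared with the opposite strand of another, as in the overlap of *Stat5a* and *Stat3*. The longest identical run held 324 bases of the coding sequence. Below, the 100 bases around its 5′ end are given for each transcript, with the single differing base in capitals (GENCODE M21, GRCm38, 5′ to 3′).
Stat5a: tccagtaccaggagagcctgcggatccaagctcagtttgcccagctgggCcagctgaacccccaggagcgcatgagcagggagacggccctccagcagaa
Stat5b: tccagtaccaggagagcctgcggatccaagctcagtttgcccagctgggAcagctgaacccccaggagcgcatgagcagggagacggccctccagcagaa
Reads that fall within such a run match both genes, so that the values of *Stat5a* and *Stat5b* rest on the rest of each transcript if such reads were left out, and are uncertain to that extent.

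Promoters of the members (250 bases before to 50 bases after a start site, RefSeq, GRCm38.p6) were searched on both strands for the STAT site TTCNNNGAA, for the STAT6 site (the same ends with 1 more base between them), and for the core of the interferon response element (GAAA, 2 bases of any kind and GAAA). All 6 members had an entry, with 9 start sites in all. No member promoter held TTCNNNGAA, which 8.29% of all 32817 promoters held. The promoter of *Stat2* held the interferon element core, read from the other strand, from position -222 and the STAT6 site from position -210, without overlap of the matches. These motifs occurred in 3.43% and 6.94% of all promoters. The second start site of *Stat4* had a match to the interferon element core at -97. The sequences of *Stat2* (chr10:128270248-128270547, + strand), of this start site of *Stat4* (chr1:52007990-52008289, + strand) and, as a promoter without a match, of *Stat6* (chr10:127642736-127643035, + strand) are given with the matches in capitals, since these genes represent the lack of a difference and the larger differences described below.
Stat2: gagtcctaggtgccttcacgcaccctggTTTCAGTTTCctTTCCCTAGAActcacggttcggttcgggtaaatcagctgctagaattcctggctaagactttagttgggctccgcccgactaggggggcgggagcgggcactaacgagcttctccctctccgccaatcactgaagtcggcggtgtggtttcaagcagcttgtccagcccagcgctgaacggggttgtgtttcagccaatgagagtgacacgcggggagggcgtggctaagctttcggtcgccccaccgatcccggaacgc
Stat4: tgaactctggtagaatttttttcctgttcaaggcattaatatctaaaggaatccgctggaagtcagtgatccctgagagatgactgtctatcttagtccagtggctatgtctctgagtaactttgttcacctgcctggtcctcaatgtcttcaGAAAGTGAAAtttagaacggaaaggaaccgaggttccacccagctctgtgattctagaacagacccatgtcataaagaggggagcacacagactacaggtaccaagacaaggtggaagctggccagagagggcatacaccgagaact
Stat6: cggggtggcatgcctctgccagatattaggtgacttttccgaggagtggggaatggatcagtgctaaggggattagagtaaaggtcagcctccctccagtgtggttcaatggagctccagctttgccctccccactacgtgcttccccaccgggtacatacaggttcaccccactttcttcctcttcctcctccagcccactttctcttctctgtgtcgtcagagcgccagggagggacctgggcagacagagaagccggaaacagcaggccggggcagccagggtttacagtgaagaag
The matches are a description of the letters only. The GC content of the 9 promoters ranged from 46% (*Stat4*, second start site) to 82.7% (*Stat5b*), against a median of 52.7% over all promoters.

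Levels of different members were compared per length, as CPM per kilobase of merged exons. *Stat3* was the highest in every library, with 86.3, 89.4 and 76.4 in WT pools 5, 6 and 13 and 97.2 and 89.9 in *Rag1*-/- pools 2 and 7 on this scale. *Stat6* came next with 36.2 ± 3.97 (SD, n = 3) CPM per kilobase in WT, against 66.7 ± 5.80 (SD, n = 2) under the *Rag1*-/- label. *Stat2* (11.3 ± 0.236), *Stat5a* (9.61 ± 0.500) and *Stat5b* (9.52 ± 0.333) were close together in WT on this scale, where *Stat5a* and *Stat5b* did not differ beyond their spread. In the libraries labelled *Rag1*-/-, *Stat5a* had 16.98 ± 3.74, *Stat5b* 14.1 ± 3.07 and *Stat2* 11.4 ± 3.31 CPM per kilobase, and these neighbours lay within their spread. *Stat4* was the lowest in every library, with 3.05 ± 1.92 CPM per kilobase in WT and 8.31 ± 0.0933 in the libraries labelled *Rag1*-/-. The order over all libraries was the same with the transcript length of the deposited table, a setting chosen after the data were seen. The closeness of *Stat5a*, *Stat2* and *Stat5b* depended on the length used. Their means over all libraries were 12.56, 11.36 and 11.34 CPM per kilobase of merged exons. With the deposited length these means were 23.04 ± 8.19, 15.31 ± 2.24 and 12.04 ± 3.12 (SD). The WT libraries alone were not compared with that length.

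As a share of the summed level of the 6 genes, *Stat3* held 57.7%, 54.1% and 52.1% in WT pools 5, 6 and 13 and 43.0% and 45.8% in *Rag1*-/- pools 2 and 7. *Stat6* held 21.8%, 24.5% and 24.3% in WT and 31.3% and 32.0% in the libraries labelled *Rag1*-/-. The groups did not overlap for either gene, nor for *Stat2*, *Stat4* and *Stat5a*, and these shares do not depend on how the libraries are scaled. How often shares of other genes separate the groups was not computed. As parts of a fixed whole, the shares are not independent of one another. The lower share of *Stat3* came without a lower CPM per kilobase of that gene. *Stat4* held 0.601% to 2.77% in WT and 3.71% and 4.21% in the libraries labelled *Rag1*-/-.

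**Figure D1:**
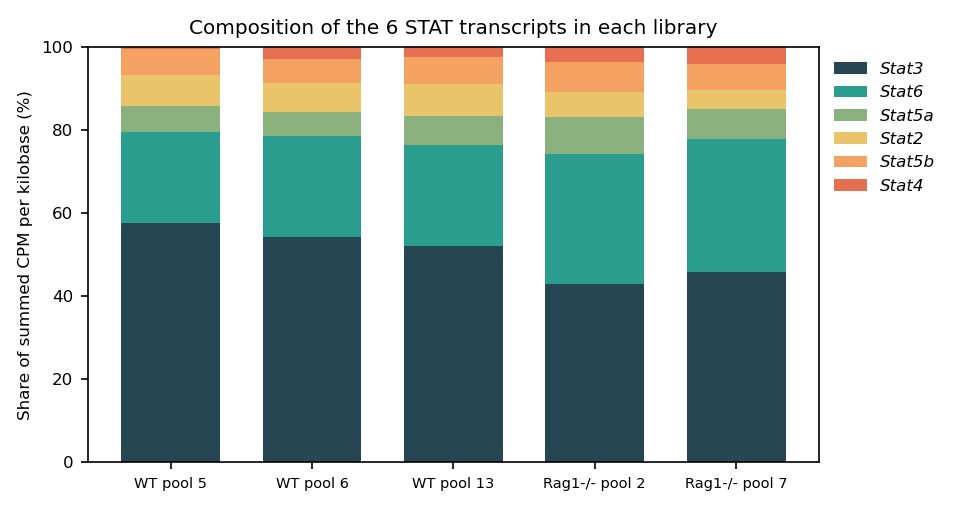
Stacked bars give the share (%) of each STAT gene in the summed CPM per kilobase of merged exons, 1 bar per library. *Stat3* takes 52.1% to 57.7% in the 3 WT pools and 43.0% and 45.8% in the 2 libraries labelled *Rag1*-/-, where *Stat6* takes 31.3% and 32.0%.

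Between the genotypes, a gene was called where edgeR (TMM scaling, Benjamini-Hochberg adjustment over all genes tested) gave an adjusted p below 0.05 and the log2 fold change was beyond 1 in either direction. None of the 6 members was called, against 5.73% of all genes tested (3.57% higher and 2.16% lower). By the adjusted p alone 2 members passed, *Stat6* and *Stat5a*, both higher, against 6.27% of all genes (3.84% higher and 2.43% lower). Before adjustment 4 members had a p below 0.05 in edgeR, against 5022 of the 19011 genes tested. DESeq2 called 0 of the 6, against 7.29% of all genes higher and 7.65% lower, and by its adjusted p alone 9.78% of all genes were higher. All 6 log2 fold changes were positive with TMM scaling, where 51.4% of all genes had a positive value, but that of *Stat2* was near 0 and turned with RLE scaling, and all 6 were negative when scaled on the pan-leukocyte genes. The median of the 6 was 0.72 against 0.02 over all genes tested. In 5 of the 6 members every library labelled *Rag1*-/- lay above every WT library, which held for 21.9% of all genes tested, while 24.0% of them lay wholly below.

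*Stat6*, the factor of IL-4 and IL-13 signalling, had 143, 178 and 157 CPM in WT pools 5, 6 and 13 and 312 and 276 CPM in *Rag1*-/- pools 2 and 7. Both libraries labelled *Rag1*-/- were higher than every WT library, with a gap wider than the spread within either group. The means were 159 ± 17.5 CPM (SD, n = 3) and 294 ± 25.5 CPM (SD, n = 2), and the fitted difference was 1.88-fold (95% interval 1.37 to 2.59), 0.91 on the log2 scale with a standard error of 0.20 (edgeR, adjusted p = 0.0436). The adjusted p-value was 0.0021 with DESeq2 and 0.0504 with limma on the deposited signal.

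*Stat5a*, a factor of IL-2, IL-7 and TSLP signalling, had 67.0, 66.1 and 72.6 CPM in WT and 140 and 102 CPM in the libraries labelled *Rag1*-/- (pools 2 and 7). The WT libraries were close to one another, and the shallow pool 2 was the higher of the libraries labelled *Rag1*-/-. The difference was 1.80-fold (95% interval 1.31 to 2.47), 0.85 on the log2 scale with a standard error of 0.19 (edgeR, adjusted p = 0.0495). This adjusted p-value lay just under the threshold and moved to either side of it. It was 0.0073 with DESeq2, 0.0382 without the filter on low counts, 0.0387 with at least 10 counts in every library and 0.0465 with the robust fit, and 0.0534 with RLE scaling, 0.0569 with library size alone and 0.0618 with limma on the deposited signal.

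Its neighbour *Stat5b*, which transmits the same cytokines and growth hormone, had 51.5, 54.8 and 51.8 CPM in WT and 89.9 and 65.8 CPM in the libraries labelled *Rag1*-/- (pools 2 and 7). As in *Stat5a*, the groups did not overlap and pool 2 was the highest. The difference of 1.50-fold (95% interval 1.10 to 2.06; log2 fold change 0.59, standard error 0.19) did not pass after adjustment (adjusted p = 0.114, edgeR). Without *Rag1*-/- pool 7, which leaves the shallow library alone in its group, the adjusted p-value was 0.0415 with a log2 fold change of 0.71.

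*Stat4*, the factor of IL-12 signalling, had the largest fold change and the largest error of the 6 genes. It had 135, 700 and 469 counts in WT pools 5, 6 and 13, which is 3.48, 17.7 and 14.2 CPM. In *Rag1*-/- pools 2 and 7 it had 32.4 and 31.9 CPM. These libraries were nearly equal and above every WT library, and WT pool 5 was far below the other WT pools. The summed pan-leukocyte markers were lowest in WT pool 5 as well. The difference was 2.78-fold with a 95% interval from 1.08 to 7.13 or 1.47 on the log2 scale with a standard error of 0.58 (edgeR, adjusted p = 0.162). Without WT pool 5 the log2 fold change was 1.03 (adjusted p = 0.106, edgeR). *Stat4* was called when genes with low counts were kept in the fit (log2 fold change 1.41, adjusted p = 0.00938, edgeR) and stayed short of it with DESeq2 (1.44, adjusted p = 0.0589).

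*Stat3* and *Stat2* showed small differences or none that could be resolved. *Stat3*, the factor of the IL-6, IL-21 and IL-23 receptors and also active in keratinocytes, had 822, 851 and 728 CPM in WT and 926 and 856 CPM in the libraries labelled *Rag1*-/-. The groups were separated by less than the spread within either of them, and the interval of the fold ran from 0.804 to 1.61 (log2 fold change 0.19, standard error 0.21, adjusted p = 0.64, edgeR). *Stat2*, the interferon factor, had 65.6, 68.2 and 67.8 CPM in WT and 81.4 and 53.6 CPM in the libraries labelled *Rag1*-/-. The latter lay on either side of the WT libraries, and the fold was 1.02 (95% interval 0.720 to 1.45; log2 fold change 0.03, adjusted p = 0.954, edgeR). The sign of its log2 fold change turned without pool 2 (-0.25, adjusted p = 0.378, edgeR).

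**Figure D2:**
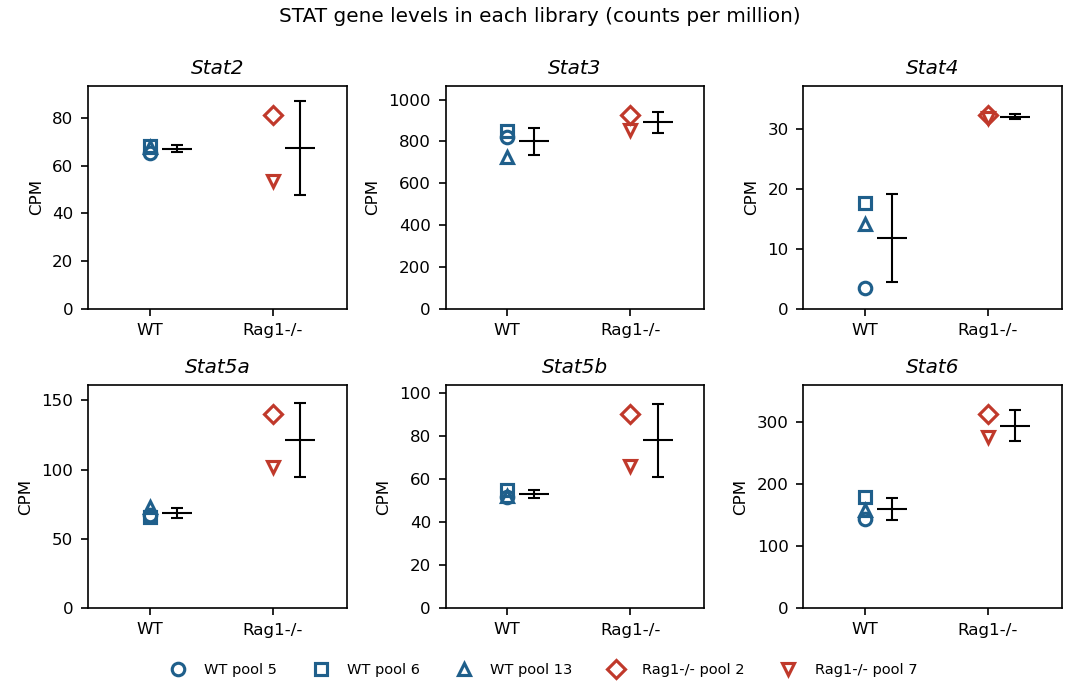
Each panel gives the CPM of 1 STAT gene (axis from 0), with a point per library, blue for the 3 WT pools and red for the 2 libraries labelled *Rag1*-/-, and bars for the mean ± SD. In *Stat6*, *Stat5a*, *Stat5b*, *Stat4* and *Stat3* the red points lie above the blue ones, and in *Stat2* they lie on either side.

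The direction of these differences depended on what the libraries were scaled to. Scaled on the pan-leukocyte genes, the median log2 fold change of all genes moved to -2.34, and 74.8% of all genes tested were called lower and 0.0736% higher. All 6 members became negative, and *Stat2* (-2.35, adjusted p = 0.00776), *Stat3* (-2.20, adjusted p = 0.0118) and *Stat5b* (-1.79, adjusted p = 0.0295, edgeR) were among the genes called lower. *Stat5a* (-1.53, adjusted p = 0.0567), *Stat6* (-1.42, adjusted p = 0.078) and *Stat4* (-0.53, adjusted p = 0.507, edgeR) were not. Relative to the median of all genes under this scaling, the values were 1.81 for *Stat4*, 0.92 for *Stat6*, 0.81 for *Stat5a*, 0.55 for *Stat5b*, 0.14 for *Stat3* and -0.01 for *Stat2*. Since this scaling moves most genes by nearly the same amount, the order of these values is that with TMM scaling largely by construction. The values are close to those with TMM scaling as well, except for *Stat4*, which had 1.47 there against a median of 0.02.

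**Figure D3:**
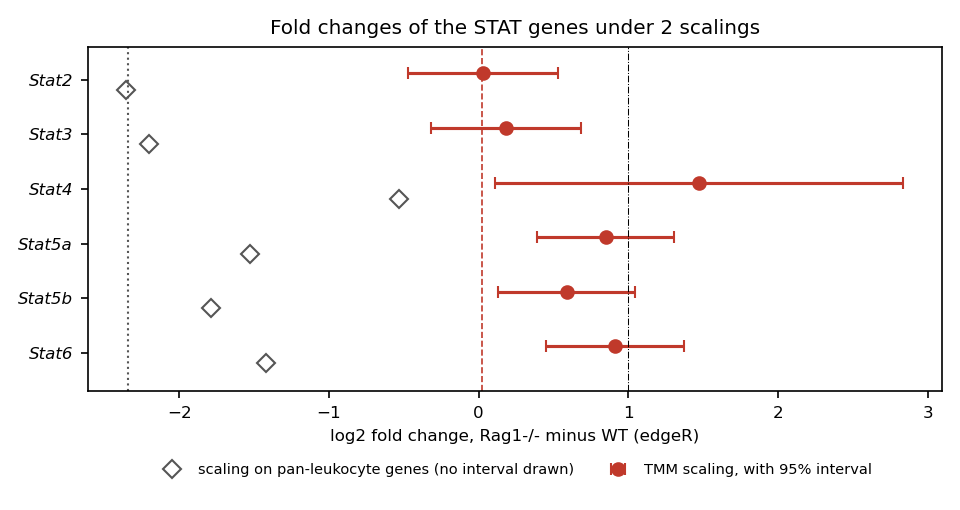
Log2 fold changes of the 6 STAT genes between the libraries labelled *Rag1*-/- and WT are drawn with TMM scaling (filled, 95% interval) and with scaling on the pan-leukocyte genes (open). The red dashed and grey dotted lines mark the median of all genes under each scaling (0.02 and -2.34) and the dash-dotted line the threshold of 1; all open points are negative, and *Stat4* lies farthest from the median under both.

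Ratios of the members within a library are free of this choice, so all 15 pairs were compared by their log2 ratio of counts. Each comparison was an exact two-sided permutation test over 10 splits, which cannot go below p = 0.1, so that no pair could pass a threshold of 0.05. The pairs are built from only 6 genes and are not independent of one another. The groups did not overlap in 12 of 15 pairs, and the share over ratios of other gene pairs was not computed. The levels of single genes, which are another measure, did not overlap in 21.9% (higher) and 24.0% (lower) of cases. Of the pairs, 7 reached the smallest exact p that the design allows (adjusted p = 0.214, exact permutation test over 15 pairs). The ratio of *Stat3* to *Stat6* was 2.52, 2.26 and 2.21 on the log2 scale in WT pools 5, 6 and 13 and 1.57 and 1.63 in *Rag1*-/- pools 2 and 7. It thus went from a 5.03-fold to a 3.04-fold excess of *Stat3* counts (exact permutation p = 0.1).

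The ratio of *Stat2* to *Stat5a* was -0.03, 0.05 and -0.10 in WT, so that the genes had nearly equal counts there, and -0.78 and -0.93 in the libraries labelled *Rag1*-/- (exact permutation p = 0.1). This pair separated the groups although *Stat2* alone overlapped, and both genes were higher in pool 2 than in pool 7. The ratio of *Stat5a* to *Stat6* was -1.21 ± 0.19 (SD, n = 3) in WT and -1.29 ± 0.20 (SD, n = 2) under the *Rag1*-/- label, a difference of -0.08 that was smaller than the spread in either group. *Stat5a* over *Stat5b* was 0.38, 0.27 and 0.49 in WT and 0.64 and 0.63 in the libraries labelled *Rag1*-/-, without overlap (exact permutation p = 0.2). The ratio of *Stat3* to *Stat4* had a mean of 6.38 ± 1.30 (SD, n = 3) in WT and of 4.79 ± 0.06 (SD, n = 2) under the *Rag1*-/- label. Its difference of -1.59 was -0.84 without WT pool 5.

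**Figure D4:**
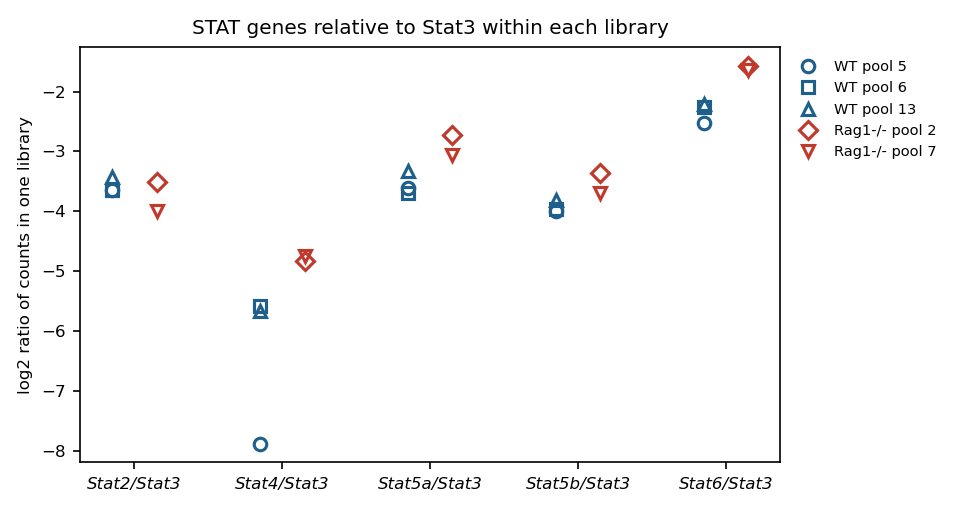
The log2 ratio of the counts of each STAT gene to those of *Stat3* within 1 library is drawn with a point per library (blue for 3 WT pools, red for 2 libraries labelled *Rag1*-/-). The red points lie above the blue ones for *Stat4*, *Stat5a*, *Stat5b* and *Stat6*, overlap for *Stat2*, and the *Stat4* point of WT pool 5 lies far below the others.

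Genes around the STATs were taken from 12 lists of 98 distinct genes (JAK kinases, receptors, inhibitors and targets), of which 94 were tested. Of these, 23 (24.5%) were called higher and 6 lower, against 3.57% and 2.16% of all genes tested, and 68 were positive with TMM scaling. Their median log2 fold change was 0.74 against 0.02 over all genes, and scaled on the pan-leukocyte genes it was -1.63 against -2.34. Many of these genes are leukocyte genes and moved beside the pan-leukocyte markers, whose 29 tested genes had a median of 2.05. The T cell markers (median 1.43) and those of NK cells and ILC1s (median 2.05) had higher sums in the same libraries as well, as given above, and their part in the differences of *Stat4*, *Jak3*, *Il2rb* and the other genes was not tested.

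Among the 4 JAK kinases, *Jak3*, which pairs with the common gamma chain, had 25.4, 36.5 and 27.7 CPM in WT and 153 and 87.3 CPM in the libraries labelled *Rag1*-/- (pools 2 and 7). On the log2 scale *Jak3* rose by 2.03 with a standard error of 0.28 (edgeR, adjusted p = 0.0306). *Tyk2*, a kinase of the interferon, IL-12 and IL-23 receptors, rose by 1.08 (standard error 0.23, adjusted p = 0.0433, edgeR). *Jak2* (0.87, adjusted p = 0.143) and *Jak1* (0.09, adjusted p = 0.829, edgeR) were not called. Scaled on the pan-leukocyte genes all 4 were negative, from -2.28 for *Jak1* to -0.30 for *Jak3*.

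The single receptor genes with the largest differences stood in the lists of STAT4 and STAT3, and *Il23r* stood in both. As a list, the STAT3 receptors had the lowest median log2 fold change (0.25). The medians were 2.66 for the receptors of STAT4, 1.37 for STAT5, 1.20 for STAT6 and 0.94 for STAT2. *Il23r*, the specific chain of the IL-23 receptor that activates STAT3 and STAT4, had 1.16 to 1.40 CPM in WT and 17.02 and 12.2 CPM in the libraries labelled *Rag1*-/-. *Il12rb1*, the chain shared by the IL-12 and IL-23 receptors, rose by 2.66 (standard error 0.40, adjusted p = 0.0306, edgeR). *Il12rb2*, the second chain of the IL-12 receptor, had a value of -0.52 instead (adjusted p = 0.406, edgeR). Scaled on the pan-leukocyte genes, *Il23r* (1.20, adjusted p = 0.168) and *Il12rb1* (0.48, adjusted p = 0.56, edgeR) lost their calls. Over the 12 STAT3 receptors, 3 were called higher (*Il23r*, *Il27ra* and *Il21r*) and 2 lower. The lower ones were *Lifr* (-1.25) and *Osmr* (-1.14), the receptors of LIF and oncostatin M, which many non-haematopoietic cells express.

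Of the 13 STAT5 receptors tested, 4 were called higher and 2 lower. *Il2rb* and *Il2rg*, the signalling chains of the IL-2 receptor, had log2 fold changes of 2.23 and 2.21, *Crlf2*, the TSLP receptor chain, 1.37 and *Il3ra* 1.54. *Il2rg* encodes the common gamma chain. The lower ones were *Prlr* (-1.80) and *Ghr* (-1.01), the prolactin and growth hormone receptors. All 3 STAT6 receptors were called, with *Il2rg* and *Il4ra* (1.20) higher and *Il13ra1* (-1.31), the IL-13 receptor chain that fibroblasts and epithelial cells carry, lower. None of the 4 interferon receptors upstream of STAT2 was called (edgeR), although 4 had an unadjusted p-value under 0.05 and DESeq2 called 3. Under scaling on the pan-leukocyte genes, *Crlf2* (-0.95), *Il3ra* (-0.76) and *Il4ra* (-1.07) were negative, whereas *Il2rb* (0.12) and *Il2rg* (0.10) were slightly positive and not called.

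Of 17 feedback inhibitors and phosphatases, 3 were called higher and none lower, with a median of 0.08. They were *Socs1* (1.74), *Cish* (1.25) and *Socs2* (1.13), inhibitors that cytokine signalling itself induces, and all 3 were negative when scaled on the pan-leukocyte genes (-0.54, -1.04 and -1.16). *Cish*, a classical STAT5 target, had 147, 221 and 160 CPM in WT and 408 and 409 CPM in the libraries labelled *Rag1*-/-. *Socs3*, the STAT3-induced inhibitor, had a log2 fold change of -0.45 and was not called (adjusted p = 0.382, edgeR).

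The textbook targets differed in their counts. All 11 STAT5 targets were positive with TMM scaling, with a median of 1.25, and 5 were called higher, among them *Pim2* (1.73), a survival kinase, and *Cish* and *Socs2*. Scaled on the pan-leukocyte genes the median of this list was -1.04. Of 7 tested STAT6 targets, 3 were called higher (*Socs1*, *Il4ra* and *Arg1*, the arginase of type 2 immunity, 2.41). Of 7 STAT4 targets, 2 were called higher, *Furin* (1.77), a proprotein convertase, and *Ifng* (4.99, standard error 1.13, adjusted p = 0.0492, edgeR). *Ifng* had 0 to 8 counts per WT library against 54 (pool 2) and 40 (pool 7). These counts are 6.71 CPM in the shallow pool 2 and 1.03 CPM in pool 7, so that the libraries labelled *Rag1*-/- differed widely. Of 12 STAT3 targets, 3 were called higher (*Il23r*, *Il17f* with 5.23, and *Batf* with 1.63) and *Myc* was called lower (-1.10). Of 12 STAT2 targets 1 was called higher, *Irf7* (1.09), with 32.3 and 36.1 CPM against 15.4 to 18.1 CPM in WT, and the median of the list was 0.48. Scaled on the pan-leukocyte genes, 3 pathway genes were called higher, *Il17f* (2.69, adjusted p = 0.00466), *Ifng* (2.64, adjusted p = 0.0212) and *Il17a* (2.30, adjusted p = 0.0216, edgeR), the last of which was not called with TMM scaling (4.44, adjusted p = 0.0549, edgeR) and was named after its values were seen. Several genes stand in more than 1 list, and the counts of the lists are therefore not independent.

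**Figure D5:**
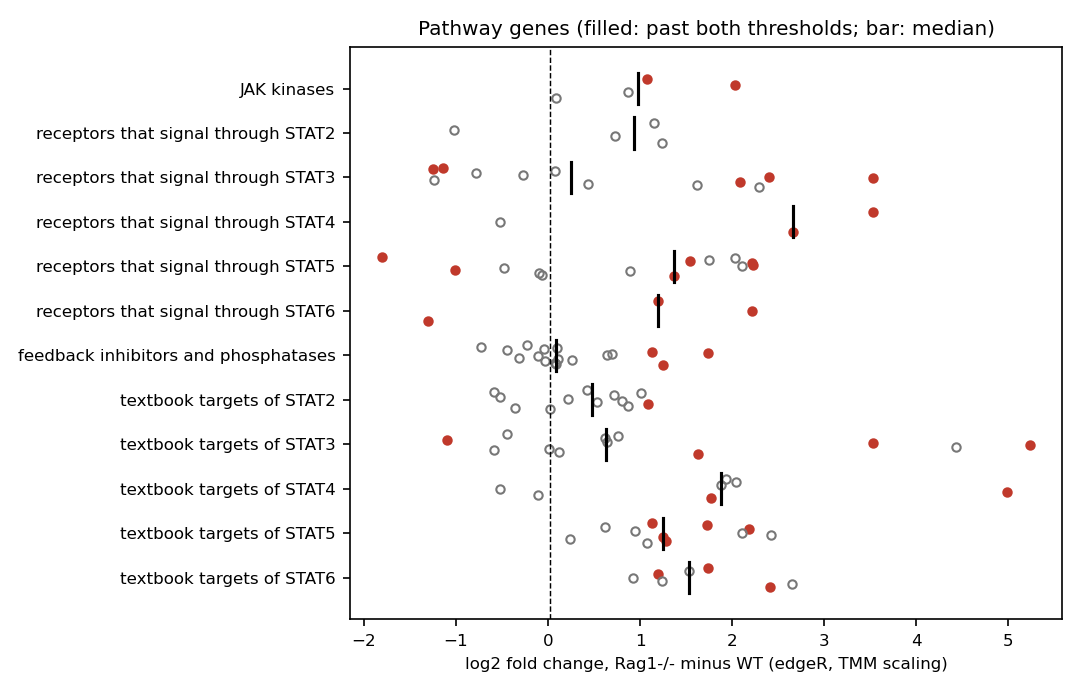
Each point is the log2 fold change (libraries labelled *Rag1*-/- minus WT, TMM scaling) of a tested gene in 1 of 12 lists of the JAK-STAT pathway, filled where it passed both thresholds, with a black bar for the list median and a dashed line for the median of all genes (0.02). List medians run from 0.08 for the feedback inhibitors to 2.66 for the STAT4 receptors, and scaled on the pan-leukocyte genes 11 of the 12 medians are negative.

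The genes whose profile over the 5 libraries was nearest to each member, among genes of like level, were also listed. The measure was the root mean square difference of log2 CPM after subtraction of each gene's mean, where 0 is an identical profile. For *Stat3* the nearest of 254 genes was *Jak1*, the kinase that phosphorylates it downstream of gp130 (0.0619), followed by *Myh9* (0.0684), a non-muscle myosin. *Stat6* was nearest to *Mapk14* (0.0396), the p38 alpha kinase, and *Ip6k1* (0.0586). *Stat5a* was nearest to *Anp32b* (0.0444) and *Pacs1* (0.0490), and *Stat5b* to *Ypel3* (0.0340) and *Pik3r4* (0.0384). *Stat2* was nearest to *Nin* (0.0240) and *Tlk2* (0.0256), whose levels were likewise higher in *Rag1*-/- pool 2 and lower in pool 7 than in WT. *Stat4* had no neighbour as close, with 0.217 for *4930417O13Rik* and 0.238 for *Rab19*, both of which were also low in WT pool 5. With 5 libraries such a likeness is a description of these libraries only.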

How the data were processed

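RNA of sorted dILC2s had been sequenced (single reads of 50 bases) in 5 libraries. Per the labels, the authors used STAR 2.5 (GRCm38 in the methods, GRCm39 listed too) and featureCounts 1.5.0-p1; the annotation release differs between the sources. The authors deposited the counts without normalization, the input of every main result, and a scaled signal used as an alternative. The members, gene lists and tests were chosen with earlier results of these data known.

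The count test was edgeR's quasi-likelihood test (version 4.0.16, R 4.3.3) after filterByExpr and TMM scaling. Standard errors came from the F statistic, and no library was left out. CPM used the total counts; 3 counts correspond to 0.0760 to 0.373 CPM, and every member lay far above this counting limit. Exon lengths came from GENCODE M21, promoters from RefSeq. Where a symbol had several rows, the one with most counts was used. Named besides the members are *Rag1*, the JAK kinases and the 2 nearest profiles per member. From each list, up to 3 called higher and 2 called lower genes by p-value are named too. *Il12rb2*, *Socs3*, *Il17a*, the 4 interferon receptor genes and the marker genes were added after their values were seen. Alternatives were DESeq2 1.42.0, limma 3.58.1 on log2 of the signal with a pseudocount of 1, other scalings and filters, a robust fit, the adjusted p-value alone, and each library left out. The fits were tested on simulated data. The p-values measure the spread between these pools.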

Additional observations from a re-analysis of the deposited data

How the results depend on the processing

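No paired analysis was possible because the WT and *Rag1*-/- libraries share no replicate numbers. The calls rest on few libraries. With any WT pool or *Rag1*-/- pool 2 left out, no gene of the table had an adjusted p-value under 0.05 in edgeR (3521 to 5200 had an unadjusted p-value under 0.05), so that *Stat6*, *Stat5a* and the pathway genes lost their calls there, with fewer samples in the fit. With pool 7 left out, 814 genes were higher and 1595 lower, and 3 members were higher with an adjusted p-value under 0.05. Over the libraries left out in turn, all genes called ranged from 0 to 814 higher and from 0 to 1595 lower, pathway genes from 0 to 21 higher and from 0 to 7 lower, and members past the adjusted p-value from 0 to 3. The log2 fold changes ranged from -0.25 to 0.22 for *Stat2*, 0.11 to 0.24 for *Stat3*, 1.03 to 1.91 for *Stat4*, 0.65 to 0.97 for *Stat5a*, 0.39 to 0.71 for *Stat5b* and 0.83 to 1.01 for *Stat6*. A library left alone in its group is assumed to vary like the others.

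Against 679 genes higher and 411 lower in the report, DESeq2 called 1197 and 1256, the fit without a filter on low counts 1157 and 1488, and the fit with at least 10 counts in every library 641 lower. Pathway genes called higher were 38 with DESeq2 and 36 without the filter, against 23. With the adjusted p-value alone 2 members were called higher, without the filter 1 (*Stat4*, 1.41). The number of members past the adjusted p-value was 1 with RLE scaling, 1 with library size alone and 0 with limma on the deposited signal. Scaling on the pan-leukocyte genes gave 14 genes higher and 14228 lower, 3 pathway genes higher and 46 lower, 0 members past the adjusted p-value as higher and 3 members called lower. It turned the log2 fold changes to -2.35 (*Stat2*), -2.20 (*Stat3*), -0.53 (*Stat4*), -1.53 (*Stat5a*), -1.79 (*Stat5b*) and -1.42 (*Stat6*), which follows from its construction, since it lowers all genes. *Stat2* also turned sign at values near 0 with DESeq2 (-0.017), RLE scaling (-1.88e-05), no filter (-0.053), at least 10 counts (-0.012) and limma (-0.032). The cause of the other changes was not tested.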
